A study of Mus musculus with 28 samples.

Results

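The developmental change of 2 kinds of mouse retinal amacrine cell was compared gene by gene, by subtracting the change of Arc amacrine cells from that of starburst amacrine cells. The comparison drew on 12 of the 28 arrays. These were 3 arrays of starburst cells at postnatal day 3 (P3), 3 of starburst cells at P18, the Arc arrays of P2, P3 and P4, and the Arc arrays of P17, P18 and P19. Of the 13617 genes tested, 548 (4.02%) passed an adjusted p of 0.05 for this difference in change, and they were sorted by which cell type changed and in which direction. Starburst cells carried a Cre recombinase knocked into the choline acetyltransferase locus (129S6-Chat_tm1(cre)Lowl/J) and a Cre-dependent red fluorescent protein at Rosa26. Arc cells carried green fluorescent protein from the transgene Tg(Arc-EGFP)194Gsat/Mmcd, driven by the promoter of the activity-regulated gene Arc. The labels give both kinds of sample the same mixed background, of C57BL/6J with an FVB/N-Swiss Webster hybrid. The Arc line was backcrossed and used at the F2 generation, and the supplied mice were known to carry a recessive mutation of photoreceptor degeneration. The other lines had been kept on C57BL/6J. Each sample held 200 cells sorted from dissociated retina by fluorescence, with gates against debris and doublets, and each Arc day in the comparison had a single array, so that neighbouring days stood in for replicates. Each starburst array has the batch entry B, and each Arc array of the comparison an entry that names A together with B. No entry is shared by both cell types, so batch entry, fluorophore, mouse line and cell type cannot be told apart, and the p-values measure the spread between these samples alone.

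Amacrine cells are inhibitory interneurons of the retina. Starburst amacrine cells release both acetylcholine and GABA, drive the spontaneous retinal waves of the first postnatal weeks through nicotinic receptors, and later supply the directional inhibition of direction-selective ganglion cells. Between the first week and the end of the third week amacrine cells stop extending neurites, form synapses in the inner plexiform layer, and pass through eye opening.

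Values are log2 of the normalised array signal, and a difference of 1 is a doubling. A background level was set for each cell type from 708 genes of olfactory receptors (the 95th percentile of their means), and was 3.91 in starburst cells and 3.53 in Arc cells. A change whose lower group lay below that level is given as a lower bound. Of 11 starburst markers measured, 9 lay above background in starburst cells at each age, and 4 and then 3 in Arc cells. All 11 pan-amacrine markers measured lay above background in Arc cells. Arrays of the same group correlated at 0.95 to 0.957 in starburst P3, 0.958 to 0.966 in starburst P18, 0.964 to 0.974 in Arc P2 to P4 and 0.983 to 0.985 in Arc P17 to P19. The median standard deviation of a gene was between 0.131 and 0.192 in the 4 groups.

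The starburst change passed the threshold for 1632 genes, 826 upward (6.07% of those tested) and 806 downward (5.92%). The Arc change passed for 1770, 1053 upward (7.73%) and 717 downward (5.27%). A further 670 genes, not called for the difference, passed in both cell types in the same direction, 396 upward and 274 downward. Among the 548 genes with a difference in change, 227 (1.67% of genes tested) had the more positive change in starburst cells and 321 (2.36%) in Arc cells. The starburst change alone passed for 229 of them and the Arc change alone for 214. In 33 both passed in opposite directions, in 60 both passed in the same direction with unequal size, and in 12 neither passed. These classes rest on thresholds, and a change that missed 0.05 in a cell type is not thereby shown to be absent. The differences among the 548 were at least 0.51 in absolute size. At least 1 was reached by 425 of them and at least 2 by 106. Just inside the threshold lay Npas4 with a difference of -1.03 and Serpini1 with -1.19, and just outside it Efcab2 with -1.12 and Gopc with -0.89.

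**Figure D1:**
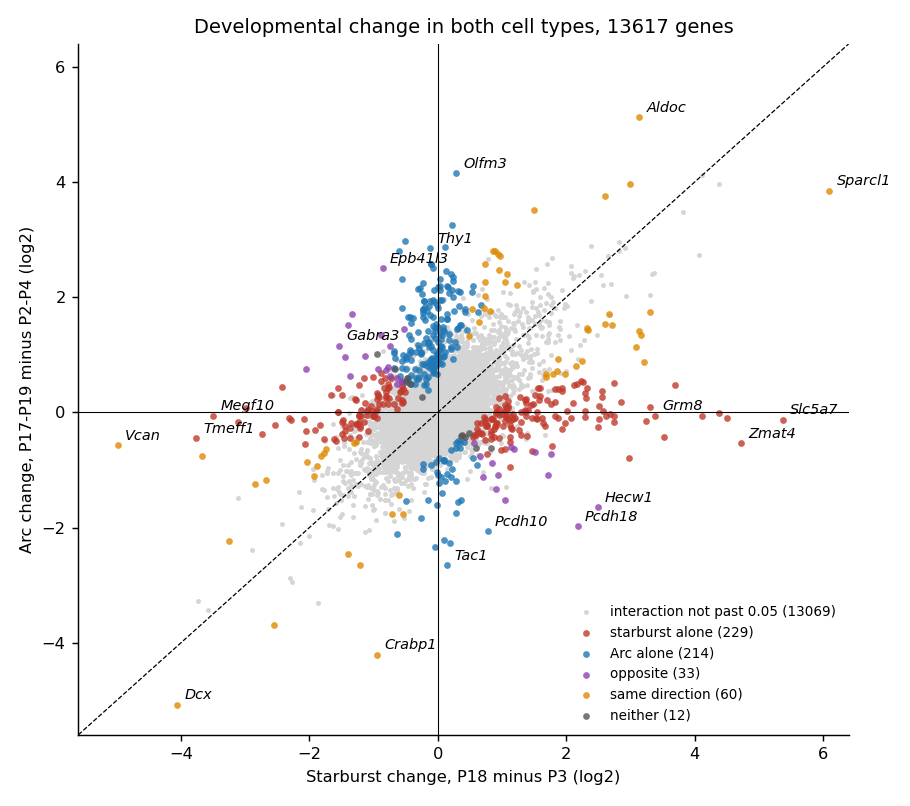
Change from early to late arrays in starburst cells (horizontal axis, log2) and in Arc cells (vertical axis, log2) for 13617 genes. Each point is a gene, colours give the class, and the dashed line marks equal change. The 229 genes called in starburst cells alone spread along the horizontal axis, the 214 called in Arc cells alone along the vertical axis, and the 33 with opposite changes lie in the upper left and lower right.

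More genes had a wider gap between the 2 kinds of cell late than early, but this depended on the direction of change. The absolute gap between starburst and Arc cells was wider at the later age in 408 of the 548 genes (74.5%) and in 7958 of all 13617 (58.4%). Its median over the 548 was 0.44 in the early arrays and 1.17 in the late arrays, against 0.21 and 0.27 over all genes. The gap widened in 125 of the 139 starburst-alone genes with the more positive starburst change, and in 41 of the other 90. It widened in 162 of the 173 Arc-alone genes with the more positive Arc change, and in 16 of the other 41. Array medians ran from 3.53 to 3.64 in late starburst arrays and from 3.34 to 3.42 in late Arc arrays. Their part in the gap over all genes was not tested. A widening gap is not independent of the difference that chose these genes, and the shares are a description.

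The largest fitted difference belonged to Slc5a7, the high-affinity choline transporter that returns choline to cholinergic terminals. Its values in starburst cells were 2.45, 2.14 and 2.8 at P3 and 7.73, 7.7 and 8.11 at P18. In Arc cells they were 2.56, 2.48 and 2.38 at P2 to P4 and 2.39, 2.3 and 2.35 at P17 to P19. Only the starburst P18 arrays stood above background, and all 3 of them stood far above the other 9 arrays. Slc5a7 rose at least 15.3-fold in starburst cells, and the fitted difference in change was 5.51 ± 0.24 (SE, 3 arrays per group, limma adjusted p = 4.35e-08). The RefSeq promoter of Slc5a7 (GRCm38.p6, chr17:54298985-54299284, minus strand), from 250 bases before to 50 after the annotated start, is shown because this gene had the largest fitted difference. It is written 5′ to 3′ on the gene's strand. Capitals mark matches to 6 short motifs searched on both strands. They were the TATA box TATAAA, the LIM-homeodomain core TAATTA, the E-box CAGCTG, another E-box with the letters CACGTG, the cAMP response element TGACGTCA and the GC box GGGCGG. None of these motifs contains another.
Slc5a7: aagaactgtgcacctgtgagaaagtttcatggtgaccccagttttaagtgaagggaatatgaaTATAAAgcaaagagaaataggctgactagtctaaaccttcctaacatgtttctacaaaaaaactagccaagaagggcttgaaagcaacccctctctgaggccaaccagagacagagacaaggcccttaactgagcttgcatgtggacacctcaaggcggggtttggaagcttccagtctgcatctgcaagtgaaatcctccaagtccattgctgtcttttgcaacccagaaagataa
It holds 1 match, to TATAAA, a motif present in 13.6% of 32851 RefSeq promoters of the same length. A match describes the letters of this window and no more.

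Other cholinergic genes changed in both directions. Of 18 cholinergic genes measured, 7 passed for the difference in change, 4 upward and 3 downward, beside 4.02% of all genes. Chat, which makes acetylcholine, went from 5.42, 5.67 and 4.88 at P3 to 6.8, 7.36 and 7.41 at P18 in starburst cells. It stayed below background in Arc cells, with means of 2.85 and 2.76. Chat rose in starburst cells by 1.87, and the difference in change was 1.96 ± 0.3 (adjusted p = 0.00173). The starburst line carries Cre at the Chat locus, so this gene also drives the label of the cells. The vesicular transporter Slc18a3 was at 6.78 ± 0.17 (SD, n = 3) and 7.55 ± 0.35 in starburst cells and below background in Arc cells. Its difference in change of 1.3 missed the threshold (adjusted p = 0.114), with a starburst change of 0.77. In a bulk sample, a lower value from fewer cells that express a gene cannot be told apart from less RNA per cell. The muscarinic receptor Chrm4 rose from 2.62, 3.03 and 2.5 to 6.02, 6.42 and 6.3 in starburst cells, at least 5.06-fold, with an Arc change of -0.42. Its difference in change was 3.95 ± 0.38.

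Of 27 regulators of G proteins and Ras measured, 6 passed for the difference, beside 4.02% of all genes. Of the 6, 2 went upward and 4 downward, and 3 were called in starburst cells alone. Among these Gng2, a G protein gamma subunit, fell by 1.29. Rgs6, a regulator that speeds the switching-off of G proteins, went from 2.68, 2.34 and 2.45 to 6.78, 6.95 and 6.89, at least 7.8-fold. Its Arc values lay between 2.28 and 2.48 on all 6 arrays, below background. Zmat4 rose from 3.31, 3.23 and 3.08 to 7.61, 8.01 and 8.2, at least 16.3-fold, a higher bound than the 15.3-fold of Slc5a7, and the chemokine Cxcl14 rose at least 3.79-fold. Camk2a, the alpha subunit of a calcium-dependent kinase of synapses, rose at least 4.05-fold in starburst cells, and its Arc change of 0.51 missed the threshold (adjusted p = 0.0768). Camk4, a nuclear calcium-dependent kinase, rose by 2.17 in starburst cells, and its Arc change of 0.5 missed the threshold. Calb1, the calcium buffer calbindin, rose at least 2.39-fold in starburst cells and had means of 2.03 and 2.04 in Arc cells. Of the synaptic adhesion genes, Clstn2 rose at least 5.12-fold and Amigo2 went from 4.21, 5.33 and 5.61 to 8.63, 8.55 and 9.07. The transmembrane collagen Col25a1 rose at least 2.84-fold in the same cells.

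Grm8, a presynaptic metabotropic glutamate receptor, differed in another way, because Arc cells already had it. Its starburst values were 3.59, 4.11 and 4.06 at P3 and 7.02, 7.65 and 7.28 at P18. Arc cells gave 6.73, 6.59 and 6.76 at P2 to P4 and 6.36, 6.75 and 6.78 at P17 to P19. Starburst cells began 2.77 below Arc cells and ended 0.69 above them. The Arc change was -0.06 with a 95% interval of -0.47 to 0.35, and the difference in change was 3.46 ± 0.27 (adjusted p = 7.09e-06). Outside the 12 arrays, the Arc array of P1 gave 4.42, and the Arc arrays from P5 to P43 gave 6.08 to 6.78.

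Of the genes called in starburst cells alone, 90 fell there. Megf10, a receptor known to space starburst cells from one another, was at 8.32, 8.37 and 8.14 at P3 and 4.92, 4.52 and 4.89 at P18. In Arc cells it stayed between 3.06 and 3.29, below background. Megf10 fell by 3.5 in starburst cells and the difference in change was -3.44 ± 0.2 (adjusted p = 3.79e-07). Isl1, the LIM-homeodomain factor that starburst cells require, fell from 9.33, 9.34 and 9.02 to 8.42, 8.29 and 8.26, a fall of 0.91, and was below background in Arc cells at both ages. Tfap2d, an AP-2 family factor, fell at least 4.3-fold. Sema3a and Sema3d, secreted semaphorins that repel growing processes, fell at least 2.04-fold and 1.88-fold to below background. Sema3a had an Arc change of 0.45, below background at both ages, that missed the threshold (limma adjusted p = 0.0876). It kept its class in 19 of 26 alternative settings and was otherwise classed as opposite. Of 36 axon guidance genes measured 4 passed for the difference, 2 in each direction, beside 4.02% of all genes. The others were the ephrin Efna5, which rose by 1.04 in starburst cells with an Arc change of -0.63, and the netrin receptor Dcc, with changes of 0.6 and -0.62 that both missed the threshold. The call for Efna5 was lost without the Arc array of P19, and that for Dcc held in 7 of 12 fits that left out an array. Islr2, a leucine-rich repeat protein of growing axons, fell by 2.54 and remained above background at 5.37. Chrna4, the alpha4 nicotinic subunit, fell from 7.47, 6.89 and 6.7 to 3.99, 3.77 and 3.95, at least 8.64-fold, and Arc cells held 4.11 and 3.94. The neuropeptide precursor Pnoc fell at least 2.58-fold and the T-type calcium channel Cacna1h fell by 1.22. The Arc change of Cacna1h was 0.47 and just missed the threshold (limma adjusted p = 0.0565). Cacna1h kept its class in 16 of 26 alternative settings and was otherwise classed as opposite.

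Tmeff1, a transmembrane protein with EGF and follistatin domains, separated the 2 cell types from nearly the same level. Starburst cells gave 8.16, 8.21 and 8.02 at P3 and 4.59, 4.48 and 4.04 at P18. Arc cells gave 8.36, 8.37 and 8.52 early and 7.84, 8.04 and 8.02 late. The gap between the cell types was 0.29 early and 3.6 late, with starburst cells lower. The Arc change of -0.45 missed the threshold in the fit used here (adjusted p = 0.0682). Kdr, a receptor for vascular endothelial growth factor, fell in starburst cells from 6.62, 6.9 and 6.85 to 4, 4.44 and 3.71. Of 14 endothelial and mural markers measured, 2 lay above background in starburst cells at each age, Kdr and Eng. The summed level of all 14 went from 7.76 to 7.9 at P3 to 6.96 to 7.31 at P18. Pecam1, Cdh5 and Tie1, which define endothelial cells, were below background in all 4 groups.

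**Figure D2:**
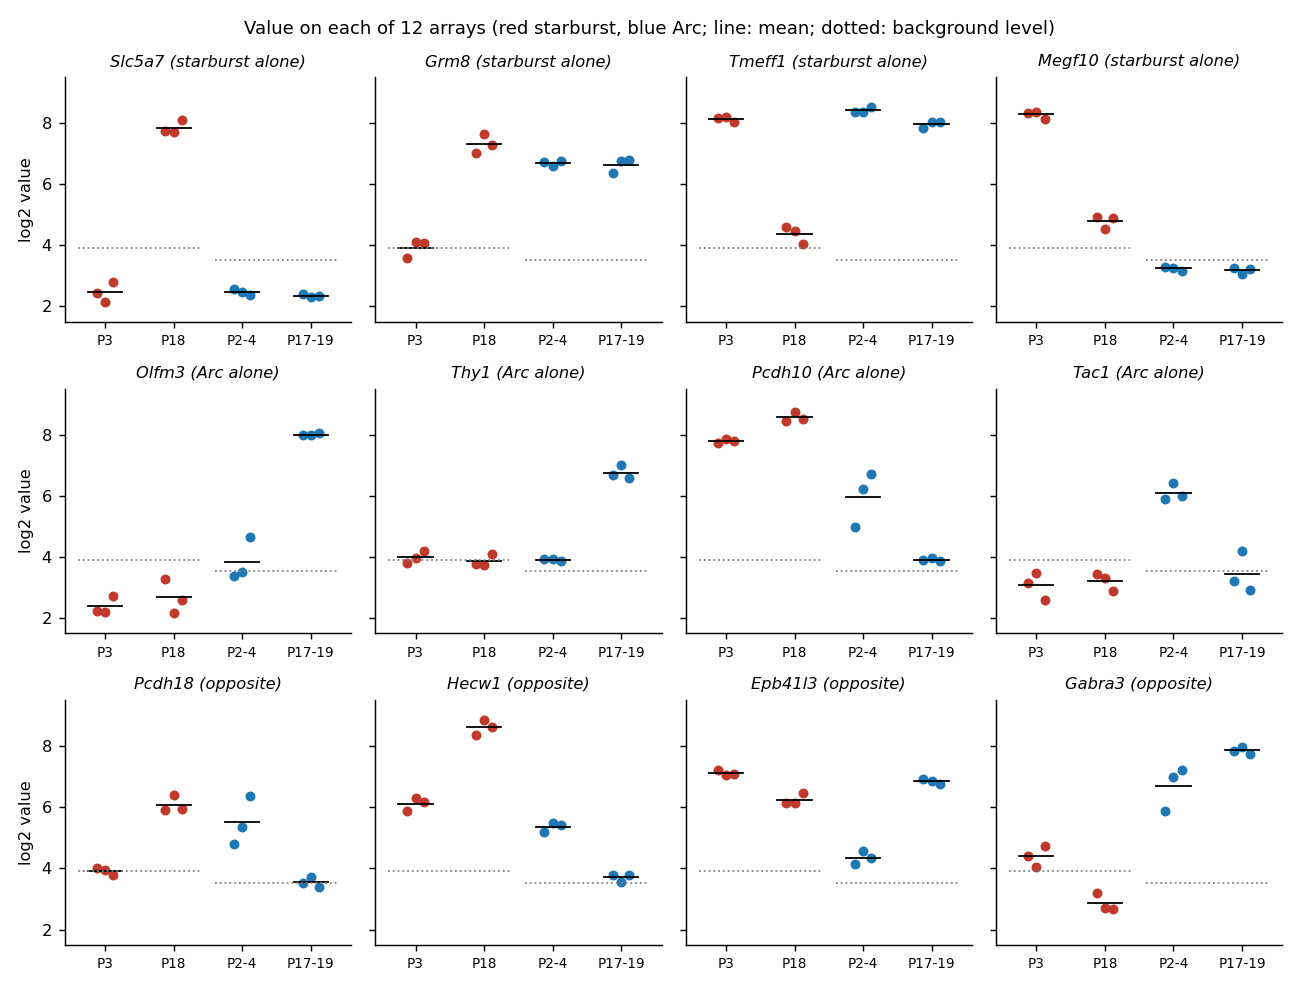
Log2 value of 12 genes on each of the 12 arrays, with starburst arrays in red, Arc arrays in blue, a black line at each mean of 3 arrays and a dotted line at the background level of the cell type. Slc5a7 is above background at starburst P18 alone, Tmeff1 falls in starburst cells from the level of Arc cells, and Gabra3 falls in starburst cells while it rises in Arc cells.

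Genes called in Arc cells alone mostly rose there: 173 of the 214 had the more positive change in Arc cells. Starburst cells lay below background at both ages for 87 of those 173, and for 107 of the 214 in all. Over all 13617 genes, only 5721 lay above background in starburst cells at P3 and 5646 at P18, so these counts are not particular to the class. Olfm3, a secreted olfactomedin, had the largest change of the class. Its Arc values were 3.36, 3.5 and 4.65 early and 7.98, 7.99 and 8.04 late, while the starburst values ran from 2.17 to 3.26, below background. The Arc change was 4.16 and the difference in change -3.87 ± 0.45 (adjusted p = 0.000225). Tshr, the receptor of thyroid-stimulating hormone, rose from 3.32, 3.56 and 3.82 to 6.45, 6.65 and 6.52. Thy1, a surface glycoprotein, rose from 3.93, 3.92 and 3.86 to 6.68, 7 and 6.57, and in starburst cells stayed between 3.74 and 4.2. Entpd3, an enzyme that breaks down extracellular nucleotides, rose at least 4.24-fold. Rasgrf1, a calcium-regulated activator of Ras, rose by 2.12 and the potassium channels Kcnn3 and Kcnh2 by 1.82 and 1.46, with starburst changes of 0.22, 0.01 and -0.05.

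Of 12 markers of Müller glia measured, 3 rose and 2 fell in Arc cells, beside 7.73% and 5.27% of all genes. Glul, glutamine synthetase, was at 2.5, 3.97 and 3.54 early and 5.91, 6.38 and 6.12 late, a rise of at least 6.1-fold, with starburst values between 1.94 and 3.98. Clu rose by 1.85 and Dkk3 by 2.4 in Arc cells, and Glul, Clu and Dkk3 were the 3 that passed for the difference. Gpr37 fell by 0.67 in starburst cells, and in Arc cells from a mean of 3.93 to 2.72, below background. Vim fell in Arc cells from a mean of 3.87 to 3.0, also below background. The summed level of the 12 went from 7.2 to 7.31 early to 8.44 to 8.63 late in Arc cells, and from 8.37 to 8.47 to 7.9 to 8.2 in starburst cells. Rlbp1, Aqp4, Car14, Abca8a and Kcnj10 were below background in all 4 groups, with Arc means of Rlbp1 at 3.07 and 3.05. Of 13 ganglion cell markers measured, Thy1 alone passed for the difference, and 8 were above background in Arc cells early and 6 late. The summed level of those 13 in Arc cells went from 7.98 to 8.23 early to 8.41 to 8.65 late. The summed level of 15 rod markers went from 9.26 to 9.32 at P3 to 9.52 to 9.61 at P18 in starburst cells, and from 9.3 to 9.5 early to 9.79 to 9.87 late in Arc cells. Gnb1 was the highest of the 15, with means of 8.89 and 8.94 in starburst cells and 9.08 and 9.2 in Arc cells. Of the 15, 7 rose in starburst cells and 9 in Arc cells, beside 6.07% and 7.73% of all genes, and 0 fell in either. Of the rod markers, Gnat1, the transducin of rods, alone passed for the difference. It rose at least 4.71-fold in starburst cells and at least 12.2-fold in Arc cells. The call for Gnat1 held in 5 of 12 fits that left out an array. The summed level of 11 bipolar markers went from 6.85 to 7.07 early to 8.42 to 8.49 late in Arc cells, and from 9.28 to 9.58 to 8.96 to 9.02 in starburst cells. In late Arc cells Prkca, a protein kinase C, was the 1 bipolar marker above background, at 8.11. Prkca rose in both cell types, from 5.29 in early Arc cells, and from 3.8, below background, to 6.63 in starburst cells. Of the 11 bipolar markers, 3 lay above background in starburst cells at P3 and 4 at P18. Isl1, given above as a factor of starburst cells, was the highest of them there, at 9.23 and then 8.32. The part of other cells in these results was not tested beyond these levels.

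Fewer genes of this class fell in Arc cells, 41 of 214. Tac1, which encodes the precursor of substance P, was at 5.9, 6.4 and 5.98 early and 3.2, 4.2 and 2.93 late, a fall of at least 5.91-fold. In starburst cells its 6 values ran from 2.59 to 3.47, below background. The late Arc mean of 3.44 was below background too, so the small late gap has no measured level behind it. Outside the 12 arrays, the single Arc arrays of P20 and P43 gave 3.94 and 5.89 for Tac1. Tnc, the matrix protein tenascin C, fell at least 3.53-fold in Arc cells and was below background in starburst cells. Nr4a2, an orphan nuclear receptor, fell from 7.77, 7.77 and 7.54 to 6.11, 5.91 and 5.8. Pcdh10, a protocadherin, fell in Arc cells from 4.96, 6.22 and 6.7 to 3.89, 3.97 and 3.85. The P2 array stood below those of P3 and P4 and above all 3 late arrays. In starburst cells Pcdh10 was at 7.79 and then 8.57, a change of 0.78 that missed the threshold (adjusted p = 0.132), and the gap between cell types went from 1.83 to 4.67. The difference in change for Pcdh10 was 2.84 ± 0.44 (adjusted p = 0.00194).

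The Arc side of the comparison was repeated in Arc arrays that had no part in sorting the genes, P1, P5 and P6 against P15, P16 and P20. Over all genes, 400 (2.94%) passed 0.05 there, 313 upward (2.3%) and 87 downward (0.639%). Of the 214 genes called in Arc cells alone, 211 changed in the same direction and 88 passed, all 88 in the same direction. Of the 229 genes called in starburst cells alone, 178 had the sign of their main Arc change and 0 passed in limma, with 40 at an unadjusted p under 0.05. These 229 were chosen for an Arc change that missed 0.05, so few calls on nearby days follow largely from that choice. The count does not show that their Arc level was unchanged. Shares over all genes for the same sign, or for an unadjusted p under 0.05, were not counted. These windows take in other early and late days, and P6 was the mean of 2 arrays. Among named genes, Tshr (2.31), Thy1 (2.47), Slc24a2 (2.55), Glul (2.37) and Grin2a (1.84) rose there past the threshold. Olfm3 gave a change of 2.96 there (adjusted p = 0.0529). With these days in place of the Arc windows, the difference in change missed 0.05 for Rims1, Syt7, Dcc, Tac1, Tnc, Nr4a2, Olfm3, Chrna6, Scg2, Kcnh2, Dkk3, Kit, Crabp1, Gria3, Synpr, Aldoc, Snap25, Sncb, Dcx, Dpysl3, Cdh2, Chrna3 and Gnat1. Starburst cells had no arrays outside the 12, so that their side has no such repeat.

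**Figure D3:**
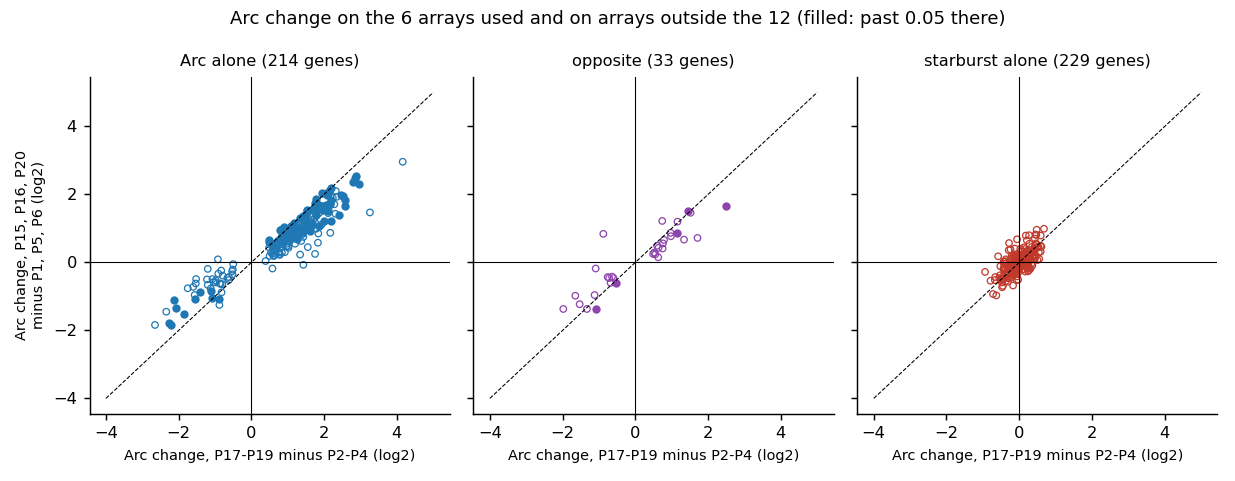
Arc change on the 6 arrays used for sorting (horizontal axis, log2) against the Arc change on arrays of other days (vertical axis, log2), with a panel for each class. Each point is a gene, filled where it passed 0.05 on the other days, and the dashed line marks equal change. Filled points number 88 of 214 in the first panel, 5 of 33 in the second and 0 of 229 in the third. Genes of the third panel were chosen for an Arc change that missed 0.05.

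In 33 genes the 2 cell types moved in opposite directions, 14 upward in starburst cells and 19 upward in Arc cells. Their number was 21 without the Arc array of P3, 19 without that of P18, and 10 with the other Arc days. Hecw1, a ubiquitin ligase, was at 5.88, 6.29 and 6.18 at P3 and 8.37, 8.85 and 8.61 at P18 in starburst cells. In Arc cells it was at 5.19, 5.48 and 5.41 early and 3.77, 3.57 and 3.78 late. No early array overlapped a late one in either cell type. Over all genes, such a separation was found upward in 11.3% and downward in 15.7% in starburst cells, and upward in 13.9% and downward in 20.4% in Arc cells. Hecw1 rose by 2.49 and fell by 1.65, a difference of 4.14 ± 0.23 (adjusted p = 2.75e-07). Pcdh18, a protocadherin, rose in starburst cells from 4.02, 3.94 and 3.78 to 5.92, 6.41 and 5.95. In Arc cells it fell from 4.81, 5.36 and 6.38 to 3.51, 3.72 and 3.39, and starburst cells went from 1.6 below to 2.55 above. Bmp1, a protease that matures collagens, rose by 1.76 and fell by 0.72. Nxph4, a neurexin ligand, rose at least 1.78-fold in starburst cells and fell at least 1.53-fold in Arc cells.

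Epb41l3, a cytoskeletal protein of the membrane, was the leading gene of the reverse kind. Starburst cells gave 7.22, 7.04 and 7.08 and then 6.14, 6.15 and 6.46, while Arc cells gave 4.14, 4.56 and 4.35 and then 6.92, 6.86 and 6.76. It fell by 0.86 and rose by 2.5, and the gap closed from 2.76 to 0.6 with its sign turned. Gabra3, the alpha3 subunit of GABA-A receptors, was at 4.42, 4.05 and 4.72 and then 3.21, 2.69 and 2.67 in starburst cells, a fall of at least 1.4-fold to below background. In Arc cells it was at 5.89, 7 and 7.21 and then 7.83, 7.98 and 7.75, a rise of 1.16. The P2 array was the lowest of the early Arc arrays, and no early array reached a late one. Gabra3 gave a difference in change of -2.7 ± 0.41 (adjusted p = 0.00179). Kit, a receptor tyrosine kinase, and Neto2, an accessory subunit of kainate receptors, also rose in Arc cells and fell in starburst cells, at least 1.94-fold and 1.3-fold. Ppfia2, a scaffold of the presynaptic active zone, fell by 1.45 and rose by 0.97. Cpe, which trims peptide precursors, fell by 1.14 and rose by 0.98. Ptpro, a receptor tyrosine phosphatase, fell at least 2.81-fold in starburst cells and rose by 0.76 in Arc cells.

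Of the 60 genes that changed in the same direction in both cell types, Vcan had the largest fitted difference. This gene encodes versican, a matrix proteoglycan. Starburst values were 7.44, 7.71 and 7.47 at P3 and 2.54, 2.67 and 2.46 at P18, and all 3 late arrays lay below background. Arc values were 3.01, 3.23 and 2.8 and then 2.49, 2.45 and 2.37, below background at both ages, so that the Arc fall of 0.57 (adjusted p = 0.0151) has no measured level behind it. Vcan fell at least 12.4-fold in starburst cells, and the difference in change was -4.41 ± 0.2 (adjusted p = 4.79e-08). Has2, which makes the hyaluronan that versican binds, did the same, from 7.05, 6.4 and 6.46 to 2.78, 3.28 and 2.84 in starburst cells, at least 6.62-fold, and below background in Arc cells. The RefSeq promoter of Vcan (GRCm38.p6, chr13:89742463-89742762, minus strand) is set beside that of Slc5a7 because these genes had the largest positive and the largest negative fitted difference. Each fit is against groups below background, and the bounds are those given for the starburst changes. Capitals mark motif matches as above.
Vcan: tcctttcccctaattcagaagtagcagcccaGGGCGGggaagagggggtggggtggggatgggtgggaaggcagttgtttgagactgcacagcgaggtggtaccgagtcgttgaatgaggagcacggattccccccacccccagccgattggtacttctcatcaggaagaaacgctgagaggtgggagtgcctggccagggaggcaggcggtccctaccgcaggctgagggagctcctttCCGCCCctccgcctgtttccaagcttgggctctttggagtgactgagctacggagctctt
It holds 2 matches to GGGCGG, a motif found in 35.7% of promoters, and none to the other motifs.

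Synaptic genes were spread over the classes. Of 30 genes of synaptic vesicles and release measured, 16 rose in starburst cells and 19 in Arc cells, and 6 passed for the difference. Over all genes, 6.07% rose in starburst cells, 7.73% rose in Arc cells and 4.02% passed for the difference. Cplx2, a complexin, and Rims1, an active zone scaffold, were called in starburst cells alone, with rises of 1.82 and 0.83. The Arc change of Rims1 was -0.47 and just missed the threshold (limma adjusted p = 0.0529). Rims1 kept its class in 15 of 26 alternative settings, and opposite was among its other classes. Syt7, a calcium sensor of release, was called in Arc cells alone, with a rise of 0.95. Its starburst change of -0.67 missed the threshold (limma adjusted p = 0.0978), and its call for the difference was lost without the Arc array of P19. Snap25, a core protein of vesicle fusion, went from 9.01, 9.3 and 8.94 to 9.73, 10.01 and 9.73 in starburst cells. In Arc cells it went from 7.8, 8.37 and 8.68 to 10.27, 10.32 and 10.37, and the starburst lead of 0.79 became a deficit of 0.5. Synpr, a vesicle membrane protein, rose by 1.5 and by 3.52. Sncb, beta-synuclein, rose by 2.61 and by 1.54, and its call held in 9 of 14 alternative settings and in 7 of 12 fits that left out an array. Sparcl1, a secreted protein of synapse formation, rose from 3.67, 3.83 and 4.56 to 10.06, 10.28 and 10 in starburst cells and from 4.26, 4.56 and 5.46 to 8.53, 8.73 and 8.58 in Arc cells. Its rise of 6.1 in starburst cells was the largest among the 60 genes of the class. Aldoc, a glycolytic enzyme that also marks astrocytes, rose at least 7.1-fold in starburst cells and by 5.13 in Arc cells. The astrocyte genes Gfap, Pax2 and Aqp4 were below background in all 4 groups. The summed level of the 5 astrocyte markers, Aldoc among them, went from 5.62 to 5.7 at P3 to 6.98 to 7.28 at P18 in starburst cells, and from 5.47 to 6.08 early to 9.06 to 9.07 late in Arc cells.

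Among 24 genes of neurite growth and cytoskeleton, 16 fell in starburst cells and 13 in Arc cells, beside 5.92% and 5.27% of all genes. Dcx, a microtubule protein of migrating and extending neurons, fell from 6.91, 6.89 and 6.47 to 2.74, 2.59 and 2.75 in starburst cells and from 7.68, 7.83 and 7.77 to 2.57, 2.71 and 2.77 in Arc cells. Both ended below background, at least 7.2-fold and 18.8-fold lower. Dcx had a difference in change of 1.02 and a gap of -1 between the cell types early. With the other Arc days in place of the windows the difference was -0.32 (adjusted p = 0.886). Dpysl3 fell by 2.55 and by 3.69, and the cadherin Cdh2 fell by 1.4 and by 2.46. Crabp1, which binds retinoic acid, fell from 9.72, 9.23 and 9.61 to 5.57, 5.49 and 4.87 in Arc cells and by 0.95 in starburst cells, so that a gap of 3.44 shrank to 0.19.

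Within families of related genes, called members changed in different cell types. The 3 potassium-dependent sodium-calcium exchangers described here were named because they were called, and the exchangers measured were not counted. Slc24a4 went from 2.69, 2.87 and 2.95 to 7.07, 7.41 and 7.53 in starburst cells, at least 10.8-fold, and ran from 2.4 to 2.87 on the 6 Arc arrays. Slc24a3 rose by 2.56 in starburst cells, to 7.58, with an Arc change of 0.27. Slc24a2 stayed below background in starburst cells, with means of 2.87 and 2.98. In Arc cells it went from 3.45, 3.21 and 3.29 to 5.98, 6.29 and 6.3, at least 6.31-fold. The differences in change were 4.59 ± 0.23 for Slc24a4, 2.3 ± 0.26 for Slc24a3 and -2.76 ± 0.31 for Slc24a2. The calcium pump Atp2b4 was called in Arc cells alone, with a rise of 2.32. Over 27 calcium-handling genes measured, 12 rose in each cell type and 11 passed for the difference, 6 upward and 5 downward. The shares over all genes were 6.07% and 7.73% for a rise in starburst and Arc cells, and 4.02% for the difference. The RefSeq promoters of Slc24a4 (GRCm38.p6, chr12:102128477-102128776, plus strand) and of the first of 2 listed entries of Slc24a2 (GRCm38.p6, chr4:87230491-87230790, minus strand) are given because the exchangers rose in different cells.
Slc24a4: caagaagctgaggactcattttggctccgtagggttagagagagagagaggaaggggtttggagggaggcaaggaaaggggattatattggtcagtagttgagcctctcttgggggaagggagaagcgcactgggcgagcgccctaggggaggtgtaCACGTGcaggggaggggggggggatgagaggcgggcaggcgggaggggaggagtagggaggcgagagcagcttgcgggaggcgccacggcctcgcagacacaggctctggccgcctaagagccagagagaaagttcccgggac
Slc24a2: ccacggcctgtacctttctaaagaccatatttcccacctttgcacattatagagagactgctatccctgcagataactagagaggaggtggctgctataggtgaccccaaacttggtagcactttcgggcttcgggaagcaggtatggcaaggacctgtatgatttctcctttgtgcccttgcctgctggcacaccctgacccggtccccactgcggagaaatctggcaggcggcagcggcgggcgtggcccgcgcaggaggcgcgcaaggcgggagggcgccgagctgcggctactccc
The first holds 1 match to CACGTG, found in 7.15% of promoters, and the second holds no match to the 6 motifs. The other Slc24a2 entry, not printed, holds 1 match to TATAAA and 1 to TAATTA.

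GABA-A and glycine receptor subunits also changed in one cell type or the other. Of 12 GABA-A subunits measured, 4 passed for the difference, beside 4.02% of all genes. Gabra4 rose in starburst cells from 2.83, 2.78 and 3.34 to 5.38, 5.88 and 5.19, at least 2.98-fold, and was below background in Arc cells. Gabrd, the delta subunit of extrasynaptic receptors, rose by 1.39 in starburst cells, from 4.56 to 5.95, and was below background in Arc cells. Gabrb2 rose in Arc cells from 4.53, 4.96 and 5.7 to 7.17, 7.25 and 7.25, with starburst means of 4.05 and 3.78. Gabra3 moved oppositely, as given above. Glra4 rose in starburst cells from 2.51, 2.81 and 2.5 to 4.96, 4.82 and 6.28, at least 2.72-fold. Glra2 fell by 0.8 in Arc cells and was below background in starburst cells, and its call held in 7 of 12 fits that left out an array.

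Of 19 glutamate receptor genes measured, 8 passed for the difference, 4 in each direction, beside 4.02% of all genes. Gria3 rose in starburst cells from 3.83, 4.21 and 3.61 to 6.86, 7.36 and 7.09, at least 9.15-fold, and by 0.87 in Arc cells, which held 7.01, 7.45 and 7.93 early. Gria1 fell in both, by 2.04 in starburst cells and by 0.86 in Arc cells. Grin2a, an NMDA receptor subunit of mature synapses, rose in Arc cells from 3.32, 3.88 and 3.83 to 5.88, 5.92 and 5.81 and was below background in starburst cells. Nicotinic subunits differed as well. Chrna6 rose at least 1.92-fold and Chrnb3 at least 1.25-fold in Arc cells, both below background in starburst cells, while Chrna4 fell in starburst cells alone. Chrna3 fell in both, at least 1.57-fold in starburst cells and at least 3.72-fold in Arc cells.

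The granins, acidic proteins of dense-core vesicles, differed in which cell type rose. Chgb rose in starburst cells from 5.05, 5.41 and 5.68 to 8.01, 8.67 and 8.03, and Arc cells held 7.64, 7.65 and 8.12 and then 8.08, 8.04 and 7.84. Starburst cells thus started 2.43 below Arc cells and ended 0.25 above them. Chga rose in Arc cells from 5.47, 5.46 and 5.43 to 7.46, 7.61 and 7.57, with a starburst change of 0.34 that missed the threshold. Scg2 rose in Arc cells from 4.05, 3.89 and 4.97 to 6.62, 6.8 and 6.54 and held 8.48 and 8.72 in starburst cells. Its gap narrowed from 4.18 to 2.06.

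**Figure D4:**
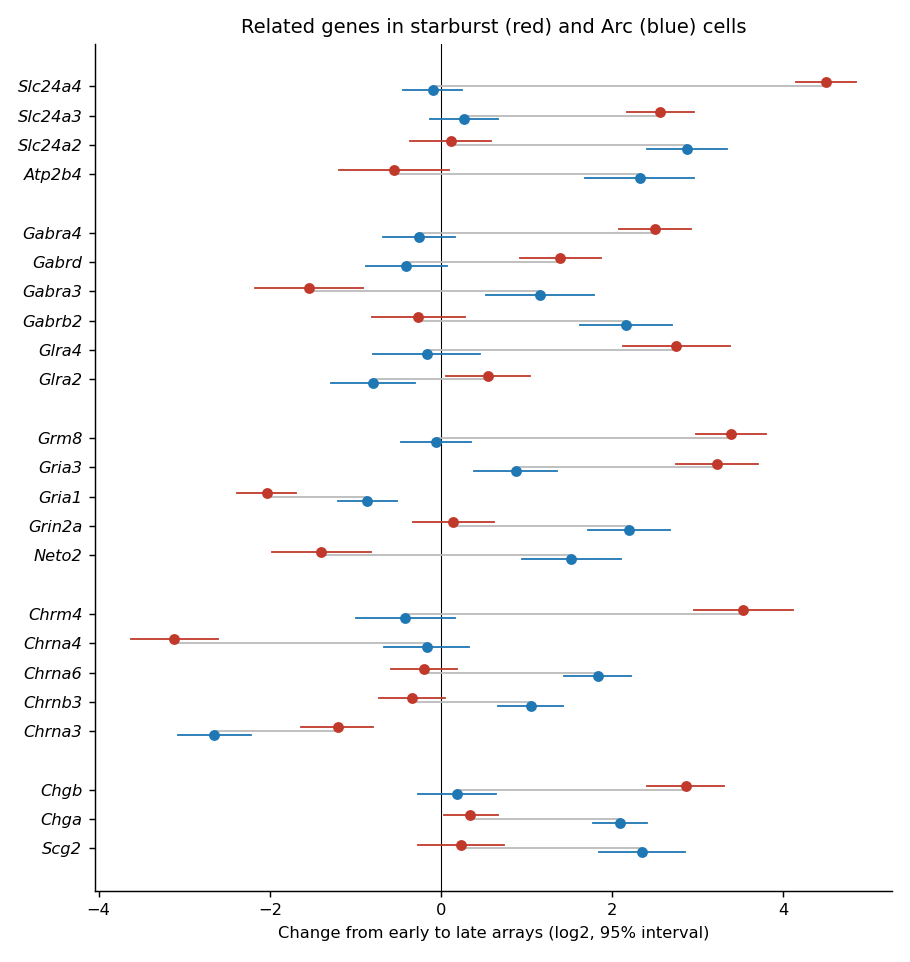
Change from early to late arrays (log2, points, with 95% intervals) in starburst cells (red) and Arc cells (blue) for related genes named in the text, in blocks of calcium transport, inhibitory receptors, glutamate receptors, acetylcholine receptors and granins. Slc24a4 and Slc24a3 rise in starburst cells while Slc24a2 and Atp2b4 rise in Arc cells, and Gabra3 and Neto2 change in opposite directions.

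Some lists held no gene with a difference in change past the threshold in limma. These were the pan-amacrine markers (0 of 11, with 1 at an unadjusted p under 0.05), transcription factors of immature neurons (0 of 29, with 5), the cell cycle (0 of 20, with 1) and cholesterol synthesis (0 of 13, with 3). With 4.02% of all genes called, few or no calls in lists of this size lie near the overall share. Immature neuron factors fell in 7 cases in starburst cells and in 8 in Arc cells, with 1 rise in starburst cells. Pan-amacrine markers fell in 5 and 4 cases and rose in 2 in each cell type. Potassium channels rose in both, 10 and 12 of 31, and 5 passed for the difference. Over all genes, 6.07% rose and 5.92% fell in starburst cells, and 7.73% rose and 5.27% fell in Arc cells. Of 42 genes of adhesion and lamination 13 passed, 7 with the more positive change in starburst cells, and of 36 matrix genes 11 passed. Oxidative phosphorylation had 2 of 22 past the threshold, and no member of the cone, microglia, lens or pigment epithelium lists passed in limma, with 3, 1, 2 and 0 at an unadjusted p under 0.05. Arc itself, whose promoter marks the Arc cells, was at 5.73 and 5.85 in Arc cells and 4.33 and 4.71 in starburst cells, with a difference in change of 0.26 (adjusted p = 0.827).

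The Arc days between the windows show when these genes moved. Thy1 stood at 3.46 to 4.17 from P1 to P9, at 5.51 at P10 and at 7 at P18. Slc24a2 passed from 3.91 at P9 to 4.77 at P10 and reached 6.3 at P19. Gabra3 made most of its rise between P1 and P4, from 5.28 to 7.21, and then went to 7.98 at P18, so the size of its Arc change depends on the early days chosen. Hecw1 was at 4.76 at P1, 5.53 at P5 and 3.57 at P18. Each Arc day other than P6 is a single array, and these values carry no test. The adult array of P43 was set against the early and late Arc arrays. In the Arc class it lay nearer to the late ones for 152 of the 173 genes with the more positive Arc change. The same held for 38 of the other 41. Tac1, at 5.89 at P43 beside Arc means of 6.09 early and 3.44 late, was not among the 38. Genes of the Arc class were chosen for a difference between these same arrays, so the counts are a description and test nothing. Among genes called in starburst cells alone, P43 lay nearer to the late Arc arrays for 76 of the 139 with the more positive starburst change. It did so for 54 of the other 90. The share over all genes was not counted. Of the 229 genes called in starburst cells alone, 47 of the 139 with the more positive starburst change and 16 of the other 90 were below background on all 22 Arc arrays. Over all 13617 genes, 6743 had a mean above it in the early Arc window and 6467 in the late one.

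**Figure D5:**
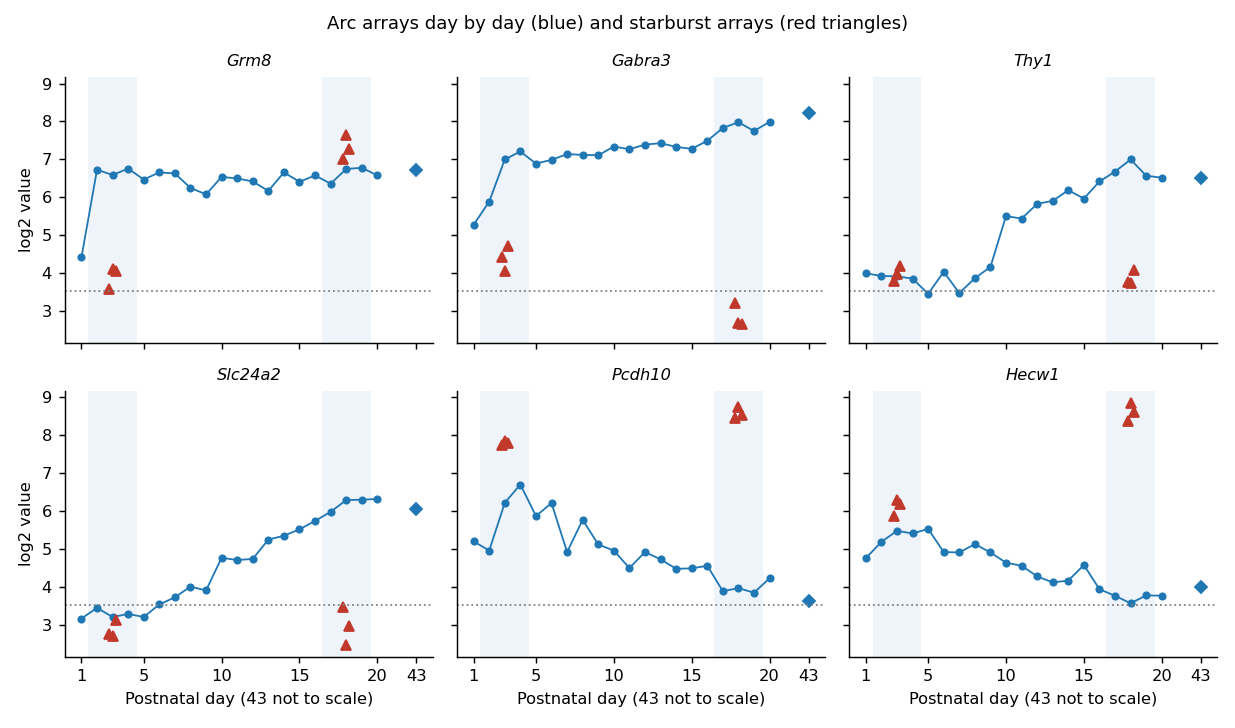
Log2 value of 6 genes on the Arc arrays by postnatal day (blue, mean of 2 arrays at P6, diamond at P43 off scale) and on the starburst arrays of P3 and P18 (red triangles). Shading marks the Arc days used in the comparison and the dotted line the Arc background level. Grm8 is at 4.42 at P1 and at 6.08 or more from P2, and Thy1 rises from 4.17 at P9 to 5.51 at P10.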

How the data were processed

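RNA from sorted cells was labelled and hybridised to arrays of transcript clusters. The authors deposited log2 values made with RMA in R 2.11.1 and named genome build mm8, per the submitters' processing notes; which arrays were normalised together, and any batch correction, are not given in the sources used here. Of 15170 clusters, 13720 had a single gene symbol in the platform annotation, 869 had several and 581 none. Where several clusters named the same gene (102 genes), that of highest mean was kept, which left 13617 genes.

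From these values, limma 3.58.1 in R 4.3.3 fitted 4 groups of 3 arrays (lmFit, then eBayes with a mean trend). Tests were two-sided, with Benjamini-Hochberg adjustment over all 13617 genes at 0.05, and the code was tested on simulated data. Intervals are at 95%. Tables and plots were made with Python 3.11.15, pandas 2.3.3, numpy 2.4.6 and matplotlib 3.10.9. The number of arrays limits the precision. The series' design text speaks of biological triplicates from 1 retina each, but the Arc table used here has 1 array per day (2 at P6). The spread within the Arc groups is therefore spread between days. The fit gives each gene a single estimate of spread over all 4 groups. The p-values of both cell types thus rest on starburst replicates and Arc days together.

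The members and gene lists were chosen with earlier results of these data known. Genes named were up to 8 per class and direction with the largest difference, of above-median mean, with a symbol that is no placeholder and without overlap of early and late arrays where called. Chat, Slc18a3, Slc5a7, Vcan, Gabra3, Arc and called list members were named too. Deviations of starburst arrays with the same number correlated at 0.046, 0.018 and -0.044, and those with different numbers at -0.069 to 0.056. The numbers were therefore not used to pair the arrays in the main fit. Such correlations cannot show that arrays with the same number shared no source. Alternatives covered scaling, filters, the prior, weights, Arc windows and leaving out each array.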

Additional observations from a re-analysis of the deposited data

Results flagged for a closer look

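The change from early to late arrays differed between starburst and Arc cells for each of the 85 called genes whose values are described above, by the limma test of the difference itself at an adjusted p of 0.05. Each value is the starburst change minus the Arc change on the log2 scale, from 3 arrays per group. Among genes called in starburst cells alone, the change was more positive there for Slc5a7 (5.51), Zmat4 (5.26), Slc24a4 (4.59), Rgs6 (4.4), Chrm4 (3.95), Cxcl14 (3.77), Grm8 (3.46), Clstn2 (3.4), Amigo2 (3.22), Glra4 (2.91), Gabra4 (2.76), Chgb (2.68), Slc24a3 (2.3), Camk2a (2.24), Col25a1 (2.17), Chat (1.96), Efna5 (1.67), Cplx2 (1.65), Rims1 (1.3), Gabrd (1.8), Camk4 (1.68) and Calb1 (1.54). It was more negative there for Megf10 (-3.44), Tmeff1 (-3.31), Chrna4 (-2.95), Sema3a (-2.88), Kdr (-2.36), Islr2 (-2.32), Tfap2d (-2.23), Sema3d (-2.14), Gng2 (-1.53), Cacna1h (-1.68), Pnoc (-1.61) and Isl1 (-1.06). Among genes called in Arc cells alone, those that fell in Arc cells were Pcdh10 (2.84), Tac1 (2.79), Tnc (2.3), Nr4a2 (2.04) and Glra2 (1.35). Those that rose in Arc cells were Syt7 (-1.62), Olfm3 (-3.87), Tshr (-3.48), Glul (-3.4), Thy1 (-2.98), Atp2b4 (-2.87), Slc24a2 (-2.76), Entpd3 (-2.68), Gabrb2 (-2.43), Dkk3 (-2.19), Scg2 (-2.11), Grin2a (-2.05), Chrna6 (-2.03), Rasgrf1 (-1.9), Kcnn3 (-1.81), Chga (-1.75), Clu (-1.53), Kcnh2 (-1.51) and Chrnb3 (-1.39). Among genes with opposite changes, those that rose in starburst cells were Pcdh18 (4.16), Hecw1 (4.14), Nxph4 (2.8) and Bmp1 (2.48). Those that rose in Arc cells were Epb41l3 (-3.36), Kit (-3.04), Neto2 (-2.92), Ptpro (-2.81), Gabra3 (-2.7), Ppfia2 (-2.42) and Cpe (-2.13). Among genes that changed in the same direction, the more positive change in starburst cells belonged to Crabp1 (3.26), Gria3 (2.35), Sparcl1 (2.24), Chrna3 (1.44), Dpysl3 (1.14), Sncb (1.07), Cdh2 (1.06) and Dcx (1.02). The more positive change in Arc cells belonged to Vcan (-4.41), Has2 (-2.92), Synpr (-2.02), Aldoc (-1.98), Snap25 (-1.29), Gria1 (-1.18) and Gnat1 (-0.97). Dcc (1.22) passed for the difference while neither change passed by itself.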

How the results depend on the processing

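Results are counts of genes past 0.05 unless stated. A linear age trend over all Arc days gave 1299 for the difference in change, 2542 for the starburst change and 4559 for the Arc change, with 419 genes in starburst alone, 546 in Arc alone, 101 opposite and 187 in the same direction. The other Arc days in place of the windows gave 295 for the difference (256 of them among the 548) and 712 for the Arc change, with 71, 10 and 14 in Arc alone, opposite and same direction. A minimum difference of 0.5 (treat) gave 181, 436 and 482 for the 3 tests and 80, 85, 2 and 5 for the classes. Opposite genes numbered 53 with array weights and 54 with wider Arc windows, and genes of the same direction 94 when only genes above background were tested. Leaving out each array in turn gave 391 to 588 for the difference, 1316 to 1691 for the starburst change and 1208 to 1807 for the Arc change. The classes then held 179 to 218 (starburst alone), 143 to 246 (Arc alone), 19 to 48 (opposite) and 36 to 71 (same direction). Opposite genes numbered 21 without Arc P3 and 19 without Arc P18, and genes of the same direction 36 without Arc P18 and 38 without Arc P19. The cause was not tested. Array number as a replicate block gave 560 for the difference and 227, 208, 47 and 68 for the classes. Whether arrays with the same number belong together is not known. Of the genes called, 41.4% had the more positive change in starburst cells, against 46.7% with quantile normalisation, 43.7% with cyclic loess and 35.9% with arrays centred on their median. Of all alternatives and genes named, Dcx alone turned its sign, to -0.32 with the other Arc days. A single weight per cell type, chosen after the data were seen, gave 543 for the difference. It gave 1298 for the starburst change and 2204 for the Arc change, against 1632 and 1770 in the main fit. Array weights gave 1366 and 2578 for these changes, so the 2 counts depend on how the spread is shared between the cell types.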
